A study of Mus musculus with 11 samples.

Results

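Cdsn, the gene of corneodesmosin, was followed through 11 RNA-seq libraries of cultured mouse bone mesenchymal stem cells (MSCs). It is 1 of 28222 genes in the count table, found there by its Ensembl identifier ENSMUSG00000039518, and it was chosen by its counts in these libraries, which were high for a gene of the outer skin. Its level and rank are therefore given as a description, without a test. The study compared MSCs of young mice, aged 3 to 5 months, with MSCs of old mice, aged 18 to 22 months, all grown at 2% oxygen. There were 4 young libraries in batch A, 2 young and 2 old ones in batch B and 3 old ones in batch C, and batch B alone can therefore separate age from batch. The labels give no genotype, strain, sex or treatment for any group. The methods of the study describe wild-type male mice of the young age, for an oxygen comparison, and cells sorted from hind limb bones without CD45 and Ter-119, which mark blood cells, and with Sca-1 and CD140a. Whether libraries of a group came from separate mice is not stated, and p-values measure only the spread between these libraries.

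Corneodesmosin is a secreted adhesive glycoprotein. It is made by the uppermost living keratinocytes of the epidermis and by the inner sheath of the hair, and it is built into corneodesmosomes, the modified desmosomes that hold the dead, flattened cells of the cornified layer together. Proteases of the kallikrein family, among them Klk5 and Klk7, cut it so that the outermost cells are shed, and the inhibitor Spink5 restrains these proteases. Mesenchymal stem cells are stromal cells that can form bone and fat cells and have no cornified layer.

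Cdsn lies on the plus strand of chromosome 17, from 35552128 to 35557180 of the mouse assembly GRCm38, near the H2-Q genes of the major histocompatibility complex. In the GENCODE M21 annotation it has 1 transcript of 2 exons. Exon 1 has 158 bases and holds 85 coding bases, and exon 2 has 2520 bases and holds 1598 coding bases, so that most of the transcript that can give reads is exon 2. No gene of this annotation overlapped Cdsn on either strand (0 genes). Whether reads of other transcripts were counted for Cdsn was not tested. RefSeq gives 2 transcripts, one with the GENCODE start and one with a start 9.03 kb further upstream, at 35543101. No gene of the GENCODE annotation lay within this longer model either.

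The 250 bases before each start are shown because counts per gene do not tell from which start the transcripts came. The sequences are those of RefSeq on GRCm38.p6, from the plus strand at chr17:35542851-35543100 (start 1) and chr17:35551878-35552127 (start 2), written 5′ to 3′, and capitals mark CpG dinucleotides.
Cdsn start 1: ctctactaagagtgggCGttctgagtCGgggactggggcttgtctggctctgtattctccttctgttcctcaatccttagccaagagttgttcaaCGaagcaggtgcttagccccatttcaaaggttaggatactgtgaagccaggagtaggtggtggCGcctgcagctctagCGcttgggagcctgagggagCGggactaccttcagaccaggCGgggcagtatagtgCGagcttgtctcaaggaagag
Cdsn start 2: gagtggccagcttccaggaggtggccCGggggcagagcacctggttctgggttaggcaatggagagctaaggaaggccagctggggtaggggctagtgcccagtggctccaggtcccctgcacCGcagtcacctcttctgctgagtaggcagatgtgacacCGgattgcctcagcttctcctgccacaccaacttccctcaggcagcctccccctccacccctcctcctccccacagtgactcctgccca
The stretch before start 1 held 8 CpG dinucleotides and that before start 2 held 3, against a median of 6 over 32851 such RefSeq windows of the mouse. The window of start 2, which is the GENCODE start, had a GC content of 64% against a median of 52.4%, and 29% of all windows held fewer CpG dinucleotides. The TATA box (TATAAA), the GC box (GGGCGG) and the AP-1 element (TGANTCA) were searched on both strands, and each had 0 matches in both windows. They were present in 12.4%, 32.7% and 6.75% of all windows, respectively.

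Cdsn was among the most abundant transcripts of young MSCs and was detected in every library. In batch A young MSCs it had 40700, 19909, 30091 and 29803 counts, or 2254, 1679, 2483 and 2418 CPM, a unit that corrects counts for library size. The young libraries of batch B had 28687 and 17277 counts, or 1493 and 1174 CPM. The old libraries of that batch had 7433 and 7189 counts, or 500 and 480 CPM. All 4 libraries of batch A thus lay above both young libraries of batch B, and these lay above both old libraries of the same batch. In batch C old MSCs the counts were 4189, 4447 and 3793, or 247, 291 and 276 CPM. The 3 libraries of batch C were the lowest of the series and lay below all libraries of batch B. The highest library had 10 times the CPM of the lowest.

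As a share of all counts, Cdsn took between 0.0286% (95% Wilson interval 0.0278% to 0.0295%, batch C old replicate 1) and 0.224% (0.222% to 0.227%, batch A young replicate 3). The intervals cover counting error only and are narrow, since total counts were between 11969336 and 20315934 per library. Group means were 2209 ± 366 CPM in batch A young (SD, n = 4), 1334 ± 225 CPM in batch B young (SD, n = 2), 490 ± 14.3 CPM in batch B old (SD, n = 2) and, lowest of all, 271 ± 22.5 CPM in batch C old MSCs (SD, n = 3). Neighbouring groups in this order were 1.66, 2.72 and 1.8 times apart, and no neighbouring groups overlapped. The same order without overlap was found for 150 of 16132 genes, or 0.93%. The biological coefficient of variation of Cdsn was 12.5%, close to the median of 12% over the tested genes.

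Ranked among all genes of a library by CPM, Cdsn stood at 39, 53, 33 and 33 in batch A young and at 58 and 96 in batch B young MSCs. It stood at 272 and 284 in batch B old MSCs and at 507, 406 and 437 in batch C old MSCs. Cdsn thus ranked at 96 or better in all 6 young libraries and at 272 or beyond in all 5 old libraries. Longer transcripts give more reads, and genes were therefore also ranked by CPM per kb of exon. On this scale the ranks were 35 to 55 in batch A young, 67 and 120 in batch B young, 249 and 265 in batch B old and 298 to 360 in batch C old libraries. Over the mean of the 4 groups Cdsn had 402 CPM per kb and rank 112, or rank 99 among protein-coding genes. The genes ranked next above it were Pkm, a glycolytic enzyme (413 CPM per kb), Hspa8, a chaperone (409 CPM per kb) and Mif, a secreted cytokine (402 CPM per kb). The genes ranked next below it coded for ribosomal proteins, Rpl7a (400 CPM per kb), Rps7 (400 CPM per kb) and Rpl37a (395 CPM per kb). In the same unit Sca-1 (Ly6a), used to sort the cells, was at 430, Gapdh at 349, Vim at 921, Actb at 1133 and Col1a1 at 4990.

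The first comparison asked whether Cdsn differed with age. The gene had been picked for its level and not for a difference, but with results of these data already known, and the fit is given as a measurement of size. With batch in the model, where batch B sets the age difference, Cdsn fell by 1.45 on the log2 scale in old MSCs (SE 0.17, edgeR adjusted p 0.00062). When batch was left out of the model, so that batches A and C entered too, it was −2.41. Both old libraries of batch B lay below both young ones, which held for 20.5% of tested genes. In this fit 2.23% of 16132 genes passed the threshold, with 0.694% called higher and 1.54% called lower. Of the 248 genes called lower, 8 had a smaller p-value than Cdsn. All 5 old libraries lay below all 6 young libraries, which held for 4.17% of tested genes. Since this was bulk RNA, fewer Cdsn-expressing cells and less Cdsn RNA per cell cannot be told apart.

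Cdsn also differed between batches of the same age. Within young MSCs it was lower in batch B than in batch A by a log2 difference of −0.71 (SE 0.18, edgeR adjusted p 0.0188), in a fit where 18.1% of 14840 genes were called, 9.39% higher and 8.71% lower. This call rested on few libraries, since it was lost without batch A young replicate 3 (−0.65, edgeR adjusted p 0.0645), without batch A young replicate 4 (−0.66, edgeR adjusted p 0.0514) and without batch B young replicate 2 (−0.54, edgeR adjusted p 0.162). Within old MSCs Cdsn was lower in batch C than in batch B by a log2 difference of −0.86 (SE 0.08, edgeR adjusted p 1.3e-06), in a fit where 64.7% of 15651 genes were called, 32.1% higher and 32.6% lower.

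**Figure D1:**
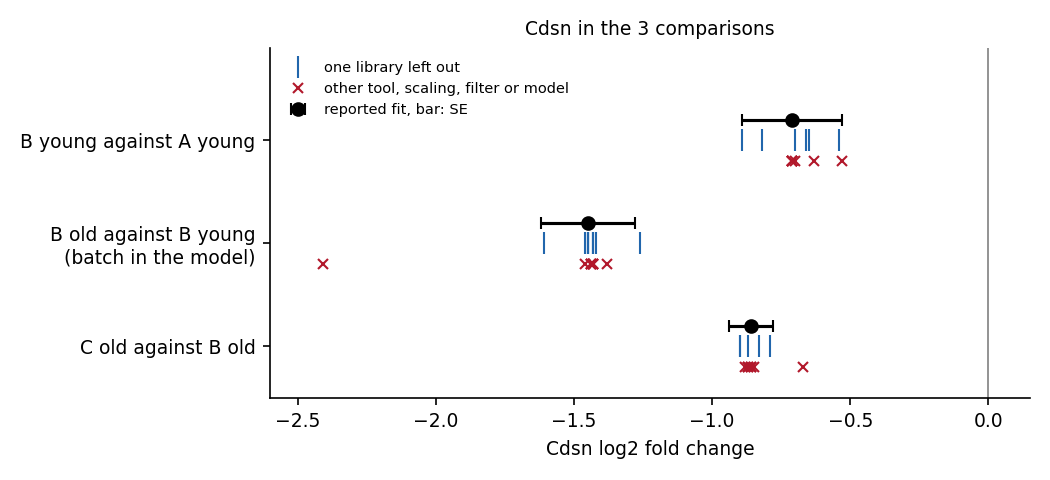
Log2 fold change of Cdsn (horizontal axis) in the young batch, age and old batch comparisons, with a black point and bar for the reported edgeR fit and its SE, a blue tick for each fit without a library, and a red cross for each other tool, scaling, filter or model. All values lie below 0, and the reported ones are −0.71, −1.45 and −0.86.

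Markers of other cells moved with the batches. Summed over 12 haematopoietic markers, all of them expressed, the level was 647 to 1416 CPM in batch A young, 364 to 741 CPM in batch B young, 738 to 1072 CPM in batch B old and 126 to 149 CPM in batch C old MSCs. In the age fit 0 of 12 passed the edgeR threshold (5 at an unadjusted p under 0.05, 0 with limma-trend and 1 with DESeq2), whereas 6 were lower in batch B than in batch A young MSCs and all 12 were lower in batch C than in batch B old MSCs. Over all genes tested, 2.23% were called in the age fit, 8.71% were called lower between young batches and 32.6% between old batches. The part of these cells in the Cdsn differences was not tested. All 14 stromal markers were expressed, as the label of the cells states. With age 2 of the 14 were called lower, like Cdsn, namely the sort marker CD140a (Pdgfra, −0.86, SE 0.15, edgeR adjusted p 0.00591) and the surface enzyme Nt5e (−1.34, SE 0.25, edgeR adjusted p 0.00932). Both calls were lost without batch B old replicate 1 (edgeR adjusted p 0.0912 and 0.128), and Nt5e moved to −0.82 without batch B young replicate 2. Neither gene followed Cdsn into batch C, where Pdgfra was highest, at 269 to 289 CPM. Their summed level was 98871 to 108614 CPM in batch A young, 51604 to 81980 CPM in batch B young, 45228 to 47754 CPM in batch B old and 43776 to 45859 CPM in batch C old MSCs, and was mostly collagen I. Endothelial markers summed to 2.43 to 4.7 CPM and erythroid markers to 0 to 3.83 CPM.

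The collagen gene Col1a1, the most abundant of the stromal markers, ran partly in the same order. Its CPM values were 56341, 52293, 61675 and 53442 in the batch A young libraries. They were 42592 and 23913 in young against 22217 and 23411 in old libraries of batch B, and 18463, 19472 and 19071 in the batch C old libraries. Young replicate 2 of batch B was thus close to both old libraries of that batch, which was not the case for Cdsn. The age difference of Col1a1 was −0.54 (SE 0.21, edgeR adjusted p 0.197) and missed the threshold. It turned on the young libraries of batch B, with −0.07 without replicate 1 (edgeR adjusted p 0.917) and −0.90 without replicate 2 (edgeR adjusted p 0.0021). Cdsn was therefore also set against Col1a1 within each library, a ratio chosen after the values were seen. Per 100 Col1a1 counts there were 3.21 to 4.52 Cdsn counts in batch A young, 3.51 and 4.91 in batch B young, 2.25 and 2.05 in batch B old and 1.34 to 1.5 in batch C old MSCs. The young batches overlapped in this ratio, and all old libraries lay below all young ones. Per 1000 counts of Vim, an intermediate filament of mesenchymal cells, there were 294 to 397 Cdsn counts in young libraries, 152 and 154 in batch B old and 62.3 to 74 in batch C old libraries.

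**Figure D2:**
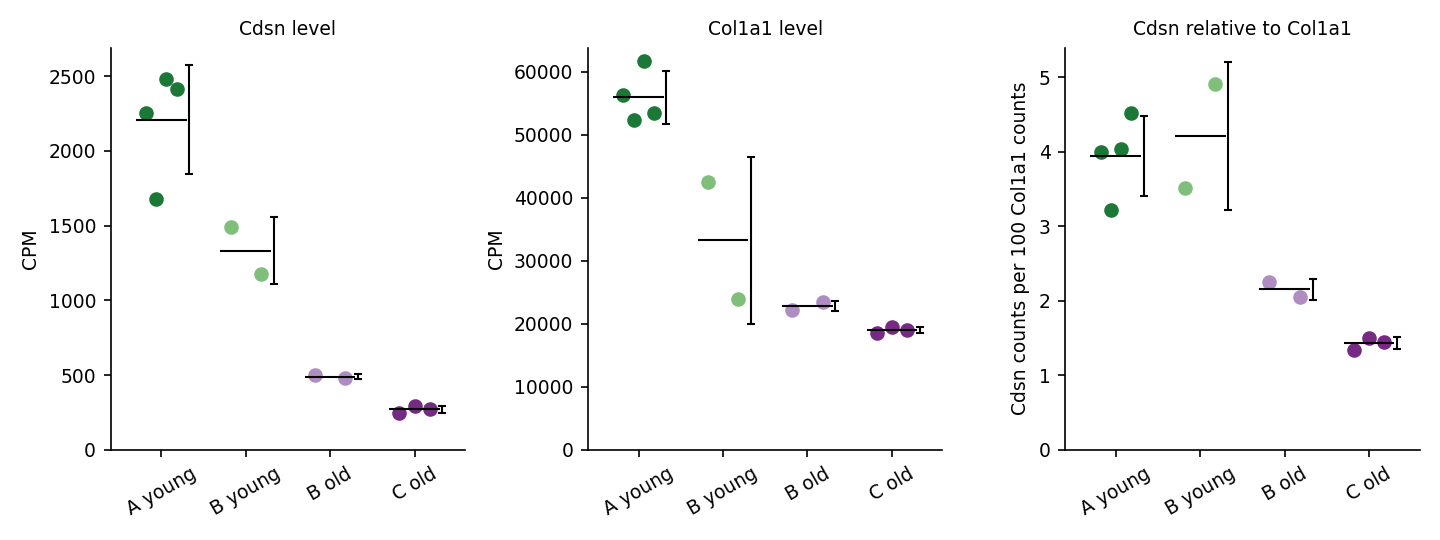
CPM of Cdsn (left), CPM of Col1a1 (middle) and Cdsn counts per 100 Col1a1 counts (right), all on linear axes from 0, by group, with a point for each of the 11 libraries, a horizontal line for the group mean and an error bar for the SD. Cdsn falls from a mean of 2209 to 271 CPM across groups that do not overlap, and in the ratio the young batches overlap and the old libraries lie at 1.34 to 2.25.

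The next question was whether the other genes of the cornified layer were expressed alongside Cdsn. The 6 lists of epidermal genes held 97 genes besides Cdsn, of which 74 were in the count table and 23 were not analysed here. Of these 74, 16 reached a mean of 1 CPM, or 21.6%, compared with 67.3% of the protein-coding genes of the table. No library exceeded 3 counts for 34 of the 74. The highest epidermal gene per kb was Klf4 with 32.7 CPM per kb, a transcription factor that keratinocytes share with many other cells, and Cdsn was 12.3 times higher. All epidermal genes of the table together reached 52.7 CPM per kb, and Cdsn was 7.63 times as high as this sum.

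**Figure D3:**
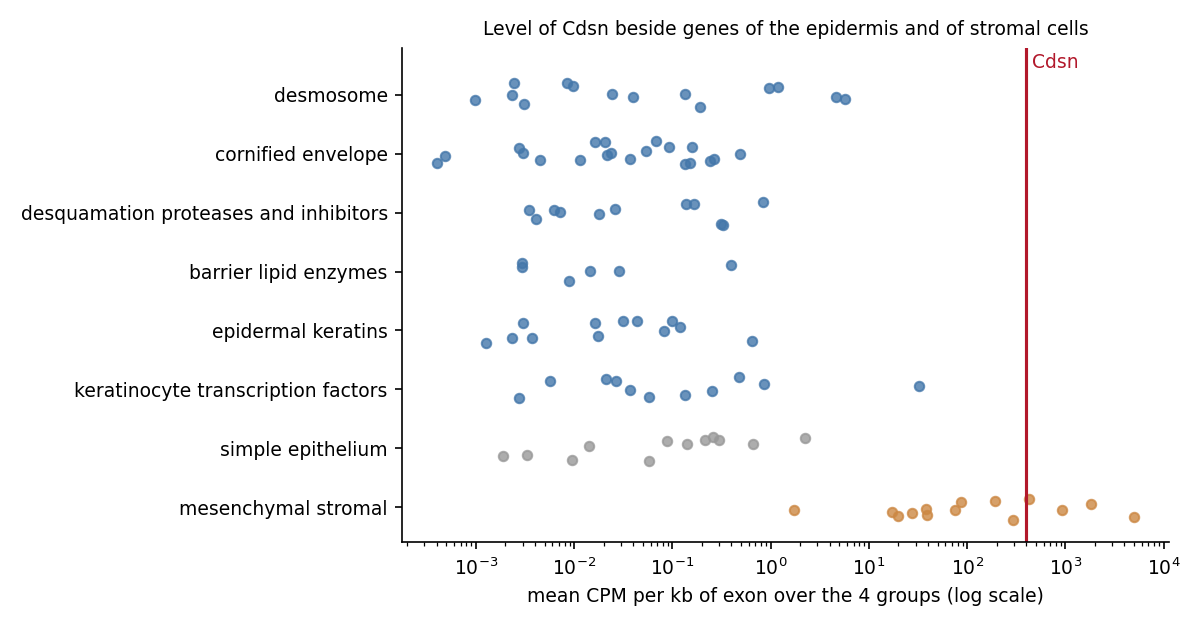
Mean CPM per kb of exon over the 4 groups (horizontal axis, log scale) for the genes of 6 epidermal lists (blue), simple epithelium (grey) and stromal markers (orange), with a point for each gene in the count table and a red line for Cdsn. Cdsn, at 402 CPM per kb, lies above all epidermal genes and within the range of the stromal markers.

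The partners of corneodesmosin in the corneodesmosome were nearly without reads. The desmosomal cadherins of the upper epidermis reached at most 1 count for Dsg1a, 2 counts for Dsg1b and 1 count for Dsc1 in any library, and Dsg2, a cadherin of simple epithelia, reached 3 counts. Of 14 listed desmosome genes with counts, 5 were expressed, and those were plaque proteins and Perp. Jup, or plakoglobin, which also serves adherens junctions, was at 29.7 CPM, and Pkp4, which is found at junctions of many cells, was at 32.7 CPM. Pkp2 was at 5.17 CPM, Perp at 2.34 CPM and Dsp, the plaque protein that anchors keratins, at 1.29 CPM. The 7 desmosomal cadherins with counts reached at most 9 counts in any library, by Dsc2.

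Structural proteins of the cornified envelope were also low. Lor, the main envelope protein, had at most 5 counts and Flg, which bundles keratins, had at most 12 counts in any library, and Ivl was not analysed here. Of 20 such genes with counts, 3 passed 1 CPM, namely Ppl, a cross-linker of envelope and filaments (1.84 CPM), Tchh, of the hair sheath (1.4 CPM), and Scel (1.22 CPM). The keratins of the epidermis were near 0 as well, with at most 1 count for Krt1, 2 for Krt5 and 3 for Krt14. Krt10, the partner of Krt1, was at 1.38 CPM.

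Among the enzymes that process corneodesmosin, Klk5 had at most 1 count in any library, and Klk7 was not analysed here. Spink5, the inhibitor of kallikreins, was at 1.51 CPM, the related protease Klk8 at 1.29 CPM and St14, the membrane protease matriptase, at 1.06 CPM. Of the 6 barrier lipid enzymes in the table Elovl4, which makes very long fatty acids, was expressed at 1.19 CPM. The keratinocyte transcription factors Trp63, which marks basal keratinocytes, and Tfap2a were at 7.12 and 2.35 CPM. Epcam reached at most 2 counts and Cdh1 at most 7 counts in any library, and all 12 markers of simple epithelium summed to 5.15 to 17 CPM per library. Of these 12, Krt19 (4.13 CPM) and the tight junction protein Cldn1 (3.23 CPM) were expressed at 1 CPM or more. With age 7 were tested and only Krt7 was called, as higher (log2 fold change 3.15, SE 0.58, edgeR adjusted p 0.00919), where 0.694% of all genes were. Krt7 had at most 38 counts in any library. Its difference was 2.86 without batch B old replicate 1, and the call was lost there. Krt8 and Krt18 had 0 CPM in all batch A libraries, against means of 0.916 and 0.856 CPM in batch B young MSCs. Their means were 1.07 and 0.871 CPM in batch B old and 0.0485 and 0 CPM in batch C old MSCs.

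Of the 74 epidermal genes, 26 to 30 had enough counts to be tested. In the age fit 30 were tested and 0 passed the edgeR threshold (9 at an unadjusted p under 0.05, 0 with limma-trend and 0 with DESeq2), with a median log2 fold change of −0.19 against 0.00 over all genes, of which 2.23% were called. Between young batches 26 were tested. Dsp (log2 fold change 2.89, edgeR adjusted p 0.00702) and Spink5 (1.36, edgeR adjusted p 0.0212) were higher in batch B, and Jup (−0.76, edgeR adjusted p 0.00427) and Tchh (−1.31, edgeR adjusted p 0.0295) were lower. The calls of Dsp, Spink5 and Tchh were lost without batch B young replicate 2, and that of Tchh also without batch A young replicate 3 or 4. Between old batches 27 were tested, of which 11 were higher and 3 were lower in batch C. Klf4 (1.22, edgeR adjusted p 9.28e-08), Ppl (2.58, edgeR adjusted p 6.9e-05) and Evpl (2.97, edgeR adjusted p 0.000774), the partner of Ppl, were higher, where Cdsn was lower. Dsp (−1.77, edgeR adjusted p 0.00124), Flg (−4.71, edgeR adjusted p 0.000441) and Krt80 (−1.64, edgeR adjusted p 0.00712) were lower, like Cdsn, with at most 12 counts in any library for Flg. These counts of calls stand beside the 18.1% and 64.7% of all genes called in the same fits.

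The genes around Cdsn were examined next. The 10 nearest protein-coding genes on each side span 518 kb, and 16 of these 20 were in the table, while Pou5f1, H2-Q2, 2300002M23Rik and Gm9573 were not analysed here. At 1 CPM or more 12 were expressed. The nearest gene upstream, Psors1c2, 17.48 kb away and named for its place in a psoriasis susceptibility region, had at most 3 counts in any library. Sfta2, 44.37 kb downstream, had 1 count in the whole series. Cchcr1, which codes for a coiled-coil protein, lay 21.11 kb upstream and was at 17.6 CPM, and Tcf19, a cell cycle regulator 35.3 kb upstream, was at 17.8 CPM. Mucl3, 78.57 kb downstream, was at 0.259 CPM. The direct neighbours of Cdsn thus ranged from almost no reads to moderate levels.

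Further away Vars2 (mitochondrial valyl-tRNA synthetase, 22 CPM), Gtf2h4 (a subunit of the transcription factor TFIIH, 17.3 CPM) and Ddr1 (a collagen receptor, 126 CPM) were expressed downstream. Ier3 was at 45.8 CPM and Flot1 at 83.2 CPM. Within 250 kb no neighbour exceeded a mean of 26.3 CPM per kb over the 4 groups. Tubb5, a beta tubulin 276.74 kb downstream, had a mean of 296 CPM per kb, the highest among the neighbours with counts. Per kb, Cdsn was above Tubb5 in young MSCs (825 against 337 in batch A and 498 against 297 in batch B) and below it in old MSCs (183 against 315 in batch B and 101 against 235 in batch C).

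**Figure D4:**
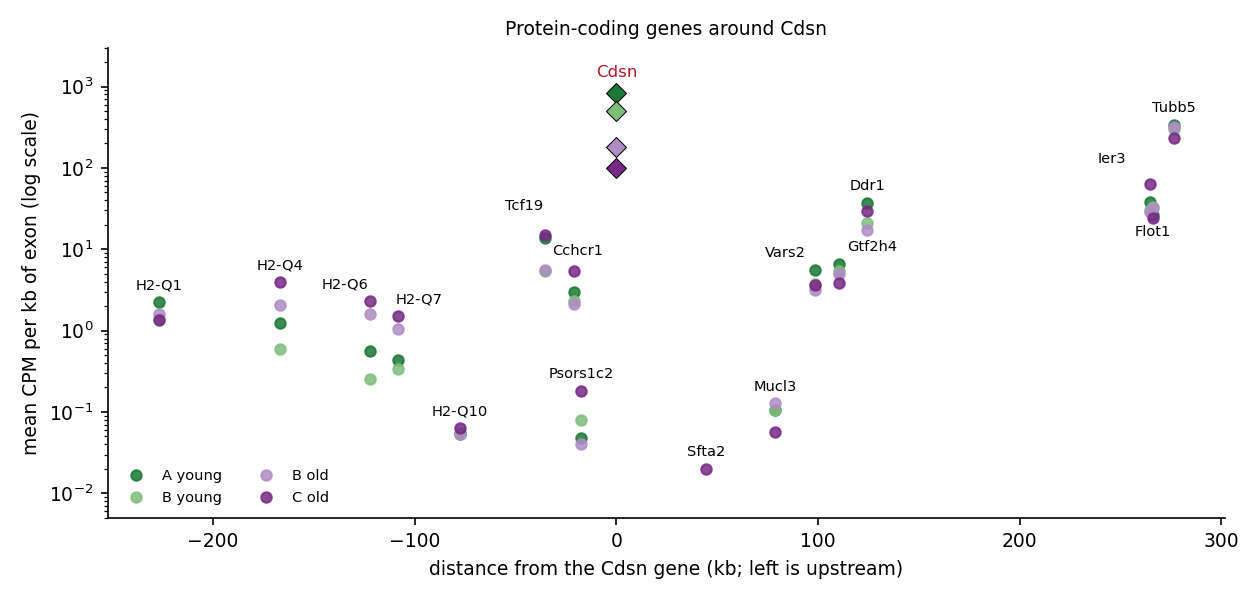
Group means in CPM per kb of exon (vertical axis, log scale) of Cdsn and its protein-coding neighbours against their distance from Cdsn in kb. Group means of 0 are not drawn. Cdsn, drawn as diamonds, is above all genes within 250 kb in all 4 groups.

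In the age fit 0 neighbours were called lower by edgeR (0 at an unadjusted p under 0.05, 0 with limma-trend and 0 with DESeq2). Of 13 tested 3 were called higher, all of them class Ib histocompatibility genes, which was the opposite direction to Cdsn, in a fit that called 0.694% of all genes higher. The log2 differences were 2.64 for H2-Q6 (SE 0.34, edgeR adjusted p 0.000917), 1.86 for H2-Q4 (SE 0.37, edgeR adjusted p 0.0141) and 1.61 for H2-Q7 (SE 0.32, edgeR adjusted p 0.0145). These genes are related members of the H2-Q cluster, between which reads can be divided, and their values are uncertain. How alike their sequences are was not examined. The calls of H2-Q4 and H2-Q7 were lost without batch B old replicate 2, without batch B young replicate 1 and in batch B alone (edgeR adjusted p 0.0963 and 0.0527), and that of H2-Q7 also without batch B old replicate 1. H2-Q4 was at 1.18 without batch B young replicate 1 and at 2.88 without batch B young replicate 2. In batch B, young and old libraries overlapped for Tcf19 (10.7 and 8.77 against 9.48 and 10.5 CPM) and for Cchcr1 (13.8 and 11.4 against 11.5 and 12 CPM).

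Between young batches 0 neighbours were called higher by edgeR (1 at an unadjusted p under 0.05, 0 with limma-trend and 0 with DESeq2) and 3 were called lower in batch B, with log2 fold changes of −1.33 for Tcf19 (edgeR adjusted p 0.00143), −0.83 for Ddr1 (edgeR adjusted p 0.00387) and −0.53 for Vars2 (edgeR adjusted p 0.0179). The call of Vars2 was lost without batch A young replicate 3 or batch B young replicate 2. Over all genes 8.71% were called lower in this fit. Between old batches 7 of 12 tested neighbours were higher and 3 were lower in batch C, where 32.1% of all genes were called higher and 32.6% lower. Tcf19 (1.41, edgeR adjusted p 2.44e-07), Cchcr1 (1.31, edgeR adjusted p 4.68e-07) and Ier3 (1.14, edgeR adjusted p 4.37e-06) were higher, where Cdsn was lower. The lower neighbours were Tubb5 (−0.43, edgeR adjusted p 0.000509), Flot1 (−0.42, edgeR adjusted p 0.000316) and Gtf2h4 (−0.38, edgeR adjusted p 0.015). The call of Gtf2h4 was lost under 2 of 12 alternatives.

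Finally, genes were ordered by how closely they followed Cdsn over the 11 libraries, as a description only. The points share their library scaling and fall into groups that differ in age and batch, and of 13604 genes 535 (3.93%) had a Pearson correlation of log2 CPM above 0.9. The highest were Ankrd46 (r = 0.994), the kinase Nek9 (0.989), Yipf3 (0.986), Tex264, a receptor of endoplasmic reticulum turnover (0.986), and the secreted protease Htra1 (0.985). The mean of Htra1 went from 233 CPM in batch A young to 95.8 CPM in batch C old MSCs and that of Ankrd46 from 75.1 to 48 CPM, both smaller ranges than that of Cdsn. After the mean of each group was subtracted, the highest were Adipor1, an adiponectin receptor (0.958), Sypl (0.931), Rpl31-ps14 (0.931), Stard3 (0.929) and Capn15 (0.925), none of which was in the first list. Col1a1 had r = 0.945 over all libraries and 0.610 within groups.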

How the data were processed

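Polyadenylated RNA of 11 MSC libraries was analysed. The deposited values are raw whole-number counts per Ensembl gene and library, which the authors had not normalised. The labels name the builds mm10 and GRCm38. The methods of the study give zUMIs, STAR and featureCounts for its oxygen comparison, and the tools for the age comparison, the use of strand and of molecular identifiers are not given in the sources used here.

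Groups were taken from the sample titles. Of 28222 identifiers 28179 matched GENCODE M21 (GRCm38), and exon length is the union of a gene's exons. Counts were fitted in edgeR 4.0.16 (quasi-likelihood, R 4.3.3) with TMM factors, filterByExpr at a minimum count of 5, and Benjamini-Hochberg adjusted p-values at 0.05, two-sided, on all genes that passed the filter. The age fit used all libraries with batch as a covariate. The batch fits used the 6 young and the 5 old libraries. CPM was computed on totals multiplied by TMM factors, and log2 CPM with a prior count of 2. The smallest level taken as detectable, 3 counts, was 0.156 to 0.253 CPM. Expressed means at least 1 CPM over the mean of the 4 groups. Repeated sequencing of a library was looked for by a chi-square per gene, which was at least 3.24 for pairs within groups, and all libraries were counted as separate.

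Alternatives were scaling by RLE or by totals, a stricter (minimum count 10) or absent filter, limma-trend (limma 3.58.1), DESeq2 1.42.0, leaving out each library, the replicate number as a block, no batch term and batch B alone. Cdsn and the gene lists were chosen with earlier results of these data known. Named genes were Cdsn, the neighbours that were nearest, expressed or called, list members that were highest, called or define the cornified layer, the 5 genes closest to Cdsn by each correlation, and the 3 genes ranked on each side. Protein sequences were not used here.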

Additional observations from a re-analysis of the deposited data

Results flagged for a closer look

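In the group of 4 batch A young libraries, 78 sets of values were searched for a library that stood apart from the others. They were the CPM of Cdsn, the ratio of Cdsn to Col1a1 counts and the CPM of other genes. Dixon's criterion was used, which chance meets in about 1 of 20 groups. It was met by 2, and Cdsn was not among them. Pkp4, a junction protein, was at 31.1 CPM in replicate 2 against 29.8 CPM in the other libraries, and Nt5e, a stromal surface enzyme, was at 12.6 CPM in replicate 1 against 10.7 to 10.9 CPM.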

How the results depend on the processing

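The age difference of Cdsn kept its direction and its call under all 20 alternatives, at −2.41 (no batch term) to −1.26 on the log2 scale and −1.61 to −1.26 when a library was left out, with adjusted p-values from 3.24e-23 to 0.0107. Between old batches it was −0.90 to −0.67 under 12 alternatives, and the call was kept in each. Between young batches it was −0.89 to −0.54 when a library was left out, and 3 of these lost the call. Deviations of same-numbered libraries were hardly correlated (r = 0.0331 between young and old of batch B, −0.112 and −0.0762 between young batches, 0.0266 and −9.61e-05 between old batches). Batch B has 2 libraries per group, whose deviations mirror each other, so that these values cannot decide whether the replicate number pairs libraries. With the replicate number as a block, Cdsn was −1.44 for age, −0.53 between young batches (adjusted p 0.337, call lost) and −0.88 between old batches, and 294, 729 and 9156 genes were called. In the age fit 1094 genes were called with no filter, 640 with DESeq2, 2641 with no batch term, 123 in batch B alone and 84 (without batch B old replicate 1) to 2007 (without batch B young replicate 2) when a library was left out. Between young batches it was 511 to 4031, without batch B young replicate 2 and 1. Total counts in place of TMM shifted the median of all genes by 0.07, 0.09 and 0.22 in the age, young batch and old batch fits, and the share of higher calls went from 31.1% to 44.8%, from 51.9% to 66.3% and from 49.6% to 62.8%. They put Cdsn at 313 CPM in batch C old MSCs. At 5 CPM, 5 epidermal genes were expressed. For Pdgfra the age difference turned to 0.14 with no batch term, and for Col1a2 that between old batches turned to 0.11 with total counts. The cause was not tested. Over other named genes, 717 of 800 alternative values kept direction and call. Depth did not limit Cdsn, but genes under 1 CPM rest on few counts.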
